A study of Mus musculus with 6 samples.

Results

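The 10 genes described here are markers of pericytes and vascular smooth muscle cells, the mural cells that wrap the capillaries and the larger vessels of the heart. They were taken by symbol (Pdgfrb, Rgs5, Cspg4, Vtn, Abcc9, Notch3, Acta2, Myh11, Tagln and Cnn1) from a table of 35618 genes, each symbol matched 1 row, and 10 of the 10 passed the filter on low counts that left 16591 genes. The 6 RNA libraries were made from myocardium of mice that received doxorubicin, an anthracycline that damages heart muscle, intraperitoneally at 20 mg/kg when 6 to 8 weeks old, with tissue taken 3 days later. There were 3 libraries of floxed mice (GSDMD-FLOX/FLOX-DOX) and 3 of mice with a myocardial-specific knockout (GSDMD-CKO-DOX). Gsdmd encodes gasdermin D, which forms membrane pores during pyroptosis. The sources used here do not name the Cre driver, doxorubicin was given in both groups, and hearts without the drug were not analysed here.

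Endothelial cells recruit pericytes by secreting PDGF-B, which binds the receptor PDGFRB on the mural cell, while Notch ligands on the endothelium act on NOTCH3 in smooth muscle and pericytes. Smooth muscle cells contract through a separate actin, myosin and calponin set, whose genes are driven by serum response factor (SRF) and its cofactor myocardin. Activated fibroblasts (myofibroblasts) also make part of this contractile set, so in heart tissue Acta2, Tagln and Cnn1 do not mark smooth muscle alone.

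Each library held 17279147 to 18875902 counted reads, of which mitochondrially encoded genes took 5.48% to 18.1%, the highest share being in knockout library 1. Gsdmd itself had 129118 to 144568 counts in the floxed libraries and 1220 to 2608 in the knockout libraries. All 10 cardiomyocyte markers passed the filter, with a summed level of 10994 to 27426 CPM (read counts scaled to library size, with TMM factors). Whether each library is a separate animal is not given in the labels, so the p-values rest on the spread among these libraries, which may be technical. In RNA from heart tissue, fewer mural cells and less RNA per mural cell cannot be told apart.

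None of the 10 genes differed between the genotypes at an adjusted p under 0.05 in the quasi-likelihood test of edgeR (p adjusted by the Benjamini-Hochberg method over all genes tested), where 0.0121% of the genes tested were called (0.0121% as lower and 0% as higher). Of the 10, 1 had an unadjusted p under 0.05 as higher in the knockout (Vtn) and 1 as lower (Cnn1), beside 4.37% and 2.65% of all genes (7.02% in either direction). Overlap of single genes, here and below, was judged in TMM-scaled CPM. Floxed and knockout values had no overlap for 2 of the 10 genes as lower in the knockout (Cnn1 and Cspg4) and for 0 as higher. Over all genes these shares were 5.98% lower, 5.82% higher and 11.8% in either direction. In the deposited FPKM both Cnn1 and Cspg4 overlapped. Cnn1 was 18.6 in knockout library 3 against 17.6 in floxed library 2, and Cspg4 3.71 in knockout library 3 against 3.61 in floxed library 3. DESeq2 also called 0 of the 10, with 1.46% of all genes called. At an unadjusted p under 0.05 DESeq2 had 2 of the 10, beside 871 genes higher and 577 lower of all 16591 tested. The log2 fold changes, knockout minus floxed, were positive for 8 of the 10 and had a median of 0.25, beside 53.8% positive and a median of 0.03 over all tested genes.

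Per length, in mean FPKM over the 6 libraries, the order was Acta2 (119.8), Rgs5 (59.8), Cnn1 (20.7), Pdgfrb (18.2), Myh11 (10.1), Vtn (9.32), Notch3 (6.38), Abcc9 (6.03), Cspg4 (4.08) and Tagln (1.19). Neighbours in this order overlapped over the libraries except at 2 steps, between Rgs5 and Cnn1 and between Cspg4 and Tagln. The pericyte and contractile genes were thus mixed along the order.

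**Figure D1:**
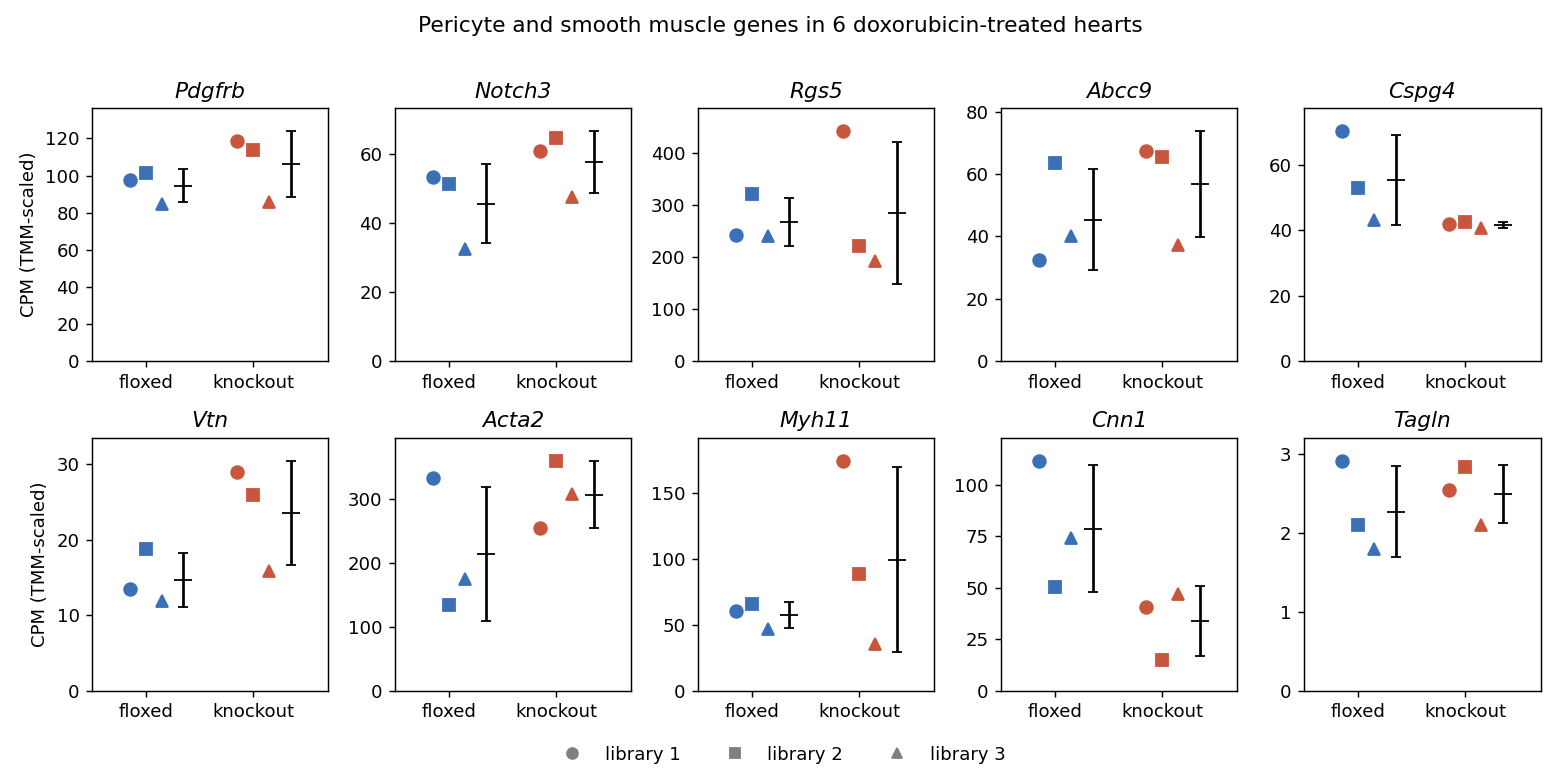
Level of each gene in CPM (vertical axes, starting at 0) in the 3 floxed (blue) and 3 knockout (red) libraries. Marker shapes give the library number, which was not used to pair the libraries in the reported fit, and bars are mean ± SD (n = 3). In CPM, though not in FPKM, Cnn1 and Cspg4 lay below the floxed range in all 3 knockout libraries. The other 8 genes overlapped between the genotypes.

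Of the 10 estimates, that of Cnn1, a contractile gene, was the lowest in the reported fit and in each of the 17 alternatives. That of Myh11, also contractile, was the highest in the reported fit but not throughout: in limma-voom it was 0.54 against 0.66 for Vtn, and without knockout library 1 it was 0.083 against 0.62 for Acta2. Because 2 contractile genes, Acta2 and Cnn1, have promoters in the reference table and had log2 fold changes of opposite sign, the 250 bases before the RefSeq start site of each (build GRCm38.p6) are shown 5′ to 3′. Acta2 is at chr19:34255374-34255623 on the minus strand and Cnn1 at chr9:22099003-22099252 on the plus strand, and capitals mark the motifs described after them.
Acta2: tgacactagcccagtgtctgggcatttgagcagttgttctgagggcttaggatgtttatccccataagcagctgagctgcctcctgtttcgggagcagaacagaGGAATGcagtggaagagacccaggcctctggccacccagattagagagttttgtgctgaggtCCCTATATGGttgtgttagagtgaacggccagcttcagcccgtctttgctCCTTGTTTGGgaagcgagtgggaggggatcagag
Cnn1: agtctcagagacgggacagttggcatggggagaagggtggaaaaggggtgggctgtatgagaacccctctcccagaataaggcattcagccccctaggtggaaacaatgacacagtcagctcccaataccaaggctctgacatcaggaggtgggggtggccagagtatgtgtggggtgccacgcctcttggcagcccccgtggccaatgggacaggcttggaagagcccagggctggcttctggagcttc
The motifs searched were the CArG box, to which SRF binds, a CArG-like form with 1 C or G in its A/T core, and the MCAT element (GGAATG or its reverse complement CATTCC), to which TEAD factors bind; the CArG forms read the same way on both strands. The Acta2 window held 2 CArG-like matches, whose first bases lie 84 and 34 bases before the start, and 1 MCAT match, whose first base lies 146 bases before it, with no overlap among them. No exact CArG box was found there, and none of the motifs was found in the Cnn1 window. Over 32851 RefSeq promoter windows of the same length, 1.47% held an exact CArG box, 7.24% a CArG-like match, 12.6% an MCAT match and 1.03% both of the last 2. Of the 10 genes, 7 had a usable promoter entry (Rgs5, Cspg4, Vtn, Abcc9, Notch3, Acta2 and Cnn1), of which 0 held an exact CArG box, 1 a CArG-like match and 3 an MCAT match. A match describes letters only, and the sequences were not tested against the expression values.

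Acta2 (ENSMUSG00000035783, chromosome 19, 34218490 to 34232990, minus strand, at the positions of the deposited table, whose starts differ from GRCm38 and whose build is not stated) encodes smooth muscle alpha-actin, the main actin of the contractile filaments. It was the most abundant of the 10 per length, at 98.0 ± 51.1 FPKM in floxed and 142 ± 31.8 FPKM in knockout libraries (SD, n = 3). Its level was 333, 134 and 175 CPM in floxed libraries 1, 2 and 3 and 254, 360 and 309 CPM in knockout libraries 1, 2 and 3. The floxed libraries 2 and 3 were the lowest of the 6, but floxed library 1 lay within the knockout range. The log2 fold change was 0.52 (SE 0.36), with an edgeR adjusted p of 0.865. The estimate depended on the floxed libraries: it was 0.99 without floxed library 1 and 0.27 without floxed library 2, with edgeR adjusted p-values of 0.849 and 1.00.

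Cnn1 (ENSMUSG00000001349, chromosome 9, 22010512 to 22020926, plus strand) encodes basic calponin, an actin-binding protein that inhibits the ATPase of smooth muscle myosin. It measured 112, 50.3 and 74.2 CPM in floxed libraries 1, 2 and 3 and 40.4, 14.8 and 46.7 CPM in knockout libraries 1, 2 and 3. In CPM each knockout library was below each floxed library, knockout library 2 by the widest margin. The gap between knockout library 3 and floxed library 2 was small, and in FPKM their order reversed (18.6 and 17.6). The log2 fold change was -1.21 (SE 0.47), with a 95% interval of -2.32 to -0.11, an edgeR unadjusted p of 0.0357 and an edgeR adjusted p of 0.665. Leaving out single libraries moved it from -1.52 to -0.86, and without knockout library 1, where edgeR called 2.92% of all genes (2.41% as higher), it was -1.37 and not called (edgeR adjusted p = 0.213). The other calponin genes, Cnn2 and Cnn3, which are made in many cell types, had log2 fold changes of 0.24 and 0.28.

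Myh11 (ENSMUSG00000018830, chromosome 16, 14012399 to 14109236, minus strand) encodes the smooth muscle myosin heavy chain, the most specific marker of differentiated smooth muscle among these genes. It measured 60.5, 65.8 and 46.8 CPM in floxed libraries 1, 2 and 3 and 174, 88.9 and 35.2 CPM in knockout libraries 1, 2 and 3. The knockout libraries therefore held both the highest and the lowest of the 6 values, a 4.96-fold spread within the genotype against 1.41-fold among the floxed libraries. The log2 fold change was 0.79 (SE 0.52), with an edgeR adjusted p of 0.862. It was 0.083 without knockout library 1, the library with the highest mitochondrial share, and 1.19 without knockout library 3.

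Tagln (ENSMUSG00000032085, chromosome 9, 45840917 to 45847356, minus strand) encodes transgelin, or SM22-alpha, an actin-associated protein of smooth muscle. It was the least abundant of the 10, with 56, 35 and 33 counts in floxed libraries 1, 2 and 3 and 40, 54 and 42 counts in knockout libraries 1, 2 and 3. The values of the genotypes overlapped throughout, and the log2 fold change was 0.13 (SE 0.34). Per length, Tagln stood at 0.0075 to 0.0172 of the Acta2 level within a library. Its level is uncertain: at the deposited positions it overlaps the genes Gm48529 (plus strand, 3627 bases shared) and Pcsk7 (plus strand, 108 bases shared), and 53.3% of its 75-base stretches in GENCODE M21 transcripts also occur in transcripts of these 2 genes on the other strand. The sources used here do not say how strand was used in counting. Gm48529 had 17 to 57 counts and Pcsk7 689 to 966, and the part of the overlap in the Tagln level was not tested. Of the other 9 genes, Abcc9 shared 1.17% and Notch3 4.23% of such stretches with another gene, and the other 7 shared 0%, Acta2 included.

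**Figure D2:**
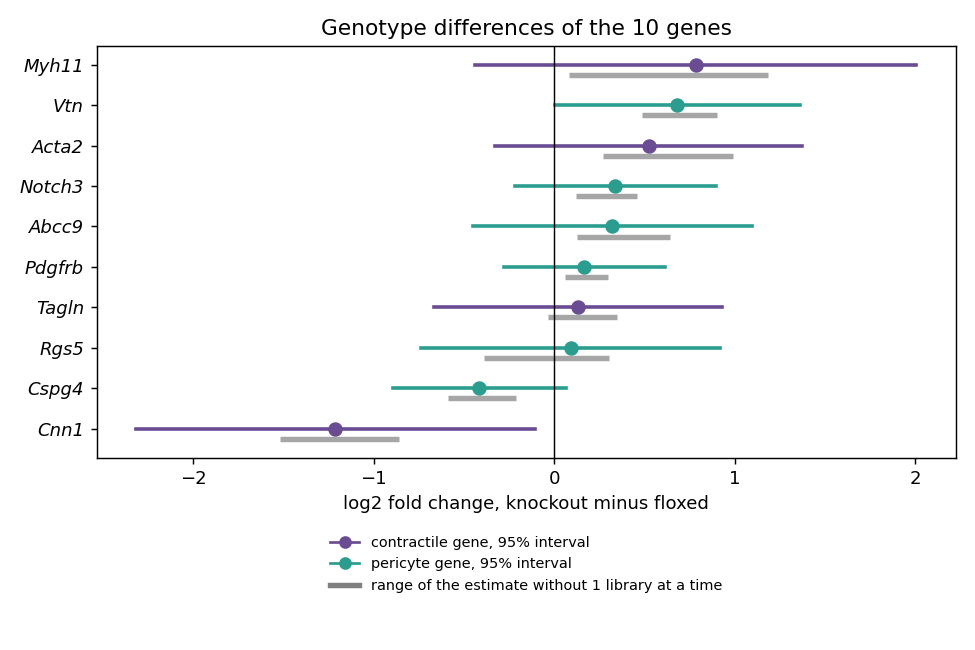
Log2 fold change, knockout minus floxed, of the 10 genes (horizontal axis) with its 95% interval from edgeR, in purple for contractile and green for pericyte genes; grey bars span the estimates without 1 library at a time. The interval of Cnn1 lies below 0, that of Vtn just above it, and the other 8 include 0; none passed after adjustment over all genes.

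Estimates for Cnn1 and Acta2 had opposite signs, though neither passed the test, and over the floxed libraries both were highest in library 1 and lowest in library 2. Their levels were also set against each other within each library, where scaling between libraries has no part. The ratio of Cnn1 to Acta2 FPKM was 0.269, 0.300 and 0.341 in floxed libraries 1, 2 and 3 and 0.127, 0.0329 and 0.122 in knockout libraries 1, 2 and 3. Each knockout ratio was below each floxed ratio, the means being 0.303 ± 0.0363 and 0.0939 ± 0.0529 (SD, n = 3). The ratio of Myh11 to Acta2 overlapped between the genotypes, at 0.0525, 0.142 and 0.0774 in the floxed and 0.198, 0.0714 and 0.0330 in the knockout libraries. These ratios were chosen after the values were seen. Of 9 computed, 3 did not overlap: Cnn1 to Acta2, Vtn to Cspg4 and Cspg4 to Pdgfrb, the last 2 sharing Cspg4. Each of the 3 had a two-sided exact permutation p of 0.1, the smallest that 3 libraries against 3 allow. Adjusted over the 9, this p was 0.3.

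**Figure D3:**
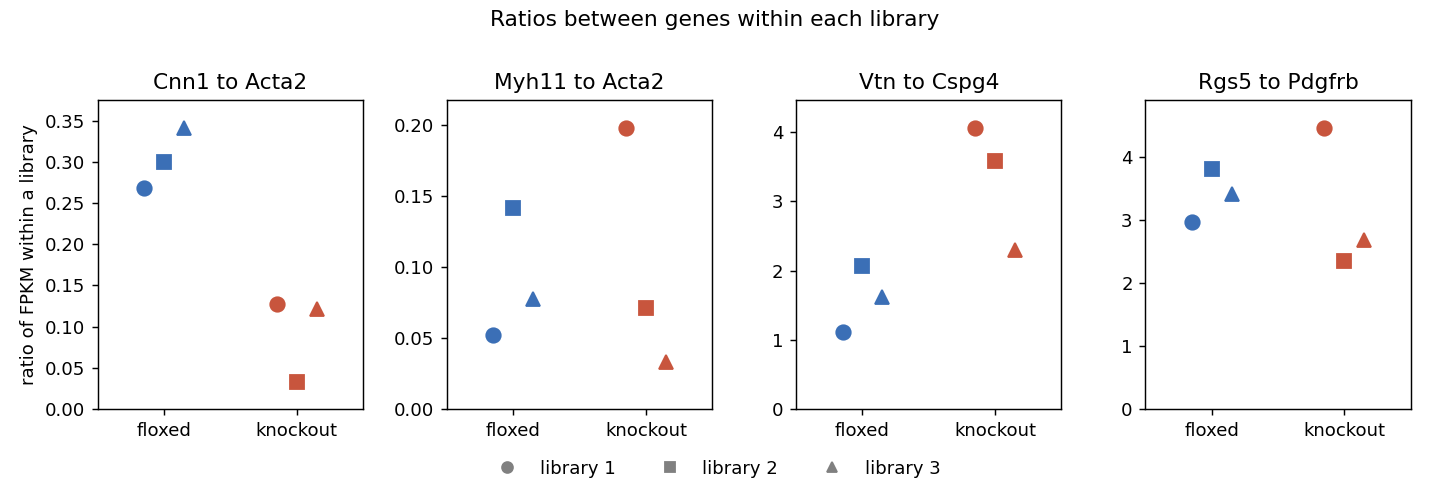
Ratio of the deposited FPKM of 2 genes within each library (vertical axes, starting at 0) for 3 floxed (blue) and 3 knockout (red) libraries. The ratio of Cnn1 to Acta2 was at least 0.269 in the floxed and at most 0.127 in the knockout libraries, the ratio of Vtn to Cspg4 was higher in each knockout library, and the other 2 ratios overlapped.

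Among the pericyte genes, the receptors Pdgfrb and Notch3 had intervals that include 0, as did Rgs5, Abcc9 and Cspg4. Pdgfrb (ENSMUSG00000024620, chromosome 18, 61178222 to 61218133, plus strand), the receptor for PDGF-B, measured 97.7, 101 and 84.7 CPM in floxed libraries 1, 2 and 3 and 119, 114 and 86.0 CPM in knockout libraries 1, 2 and 3. It varied least of the 10 over the 6 libraries, with a highest value 1.40 times the lowest. Its log2 fold change was 0.17 with a 95% interval of -0.28 to 0.61. Notch3 (ENSMUSG00000038146, chromosome 17, 32339794 to 32385826, minus strand), the Notch receptor of mural cells, measured 53.3, 51.4 and 32.5 CPM in the floxed and 61.0, 64.6 and 47.7 CPM in the knockout libraries. Knockout libraries 1 and 2 were above all floxed libraries while knockout library 3 was not, giving a log2 fold change of 0.34 and a 95% interval of -0.22 to 0.89. Pdgfrb and Notch3 had the most similar courses of any 2 of the 10 genes, their log2 CPM differing by 0.14 on average once each was centred on its own mean over the 6 libraries, and Myh11 and Cnn1 had the least similar, followed by Abcc9 and Cnn1, which differed by 1.04.

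Rgs5 (ENSMUSG00000026678, chromosome 1, 169483070 to 169523382, plus strand) encodes a regulator that shortens G protein signalling and is a much used pericyte marker. It was the second most abundant of the 10 per length, at 58.3 ± 8.23 FPKM in floxed and 61.3 ± 23.6 FPKM in knockout libraries (SD, n = 3). It measured 241, 321 and 240 CPM in floxed libraries 1, 2 and 3 and 441, 221 and 192 CPM in knockout libraries 1, 2 and 3. Knockout library 1 held the highest value and knockout libraries 2 and 3 the lowest 2. The log2 fold change of 0.09 (SE 0.35) turned to -0.39 without knockout library 1 (edgeR adjusted p = 0.389) and was 0.31 without knockout library 3.

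Abcc9 (ENSMUSG00000030249, chromosome 6, 142533588 to 142648041, minus strand) encodes SUR2, the regulatory subunit of the ATP-sensitive potassium channel of mural cells and, in another splice form, of cardiomyocytes. It measured 32.4, 63.5 and 40.1 CPM in floxed libraries 1, 2 and 3 and 67.6, 65.5 and 37.1 CPM in knockout libraries 1, 2 and 3. High and low libraries occurred in both genotypes, and the log2 fold change was 0.32 (SE 0.33). Kcnj8, the pore subunit that pairs with SUR2 in mural cells, had a log2 fold change of 0.28, and Kcnj11, the pore subunit of cardiomyocytes, one of -0.35, neither past the test.

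The matrix and surface proteins of the pericyte set had estimates of opposite sign. Vtn (ENSMUSG00000017344, chromosome 11, 78389917 to 78393150, plus strand) encodes vitronectin, an adhesive glycoprotein made by pericytes and, in large amounts, by the liver. It measured 13.4, 18.7 and 11.9 CPM in floxed libraries 1, 2 and 3 and 28.9, 25.9 and 15.8 CPM in knockout libraries 1, 2 and 3. Knockout libraries 1 and 2 lay above all floxed libraries, but knockout library 3 lay below floxed library 2. The log2 fold change was 0.68 (SE 0.29), with an edgeR unadjusted p of 0.0488 and an edgeR adjusted p of 0.709, and leaving out single libraries moved it from 0.49 to 0.90. Of the 8 liver markers with a row, 5 passed the filter (median log2 fold change -0.02) and 3 did not, with at most 17 counts in any library. The tested liver marker with the smallest p, Trf, which encodes the iron carrier transferrin and is also made outside the liver, measured 90.6 to 137 CPM in the floxed and 52.0 to 84.6 CPM in the knockout libraries. The part of liver transcripts in the Vtn values was not tested.

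Cspg4 (ENSMUSG00000032911, chromosome 9, 56772317 to 56807154, plus strand) encodes the proteoglycan NG2 on the pericyte surface. It measured 70.3, 53.1 and 43.1 CPM in floxed libraries 1, 2 and 3 and 41.9, 42.5 and 40.6 CPM in knockout libraries 1, 2 and 3. In CPM the knockout libraries lay close together, with a coefficient of variation of 2.36% against 24.8% in the floxed libraries, and only just below floxed library 3. In FPKM they overlapped with floxed library 3, at 3.20, 3.61 and 3.71 in knockout libraries 1, 2 and 3 against 3.61. The log2 fold change was -0.41 (SE 0.20), with an edgeR unadjusted p of 0.0809 and an edgeR adjusted p of 0.759. It was -0.21 without floxed library 1. The ratio of Vtn to Cspg4 FPKM was 1.12, 2.07 and 1.62 in the floxed and 4.06, 3.58 and 2.29 in the knockout libraries.

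The libraries in which these genes were high were not the same for all of them. Knockout library 1 held the highest value for 5 of the 10 genes (Pdgfrb, Rgs5, Vtn, Abcc9 and Myh11), floxed library 1 for 3 (Cspg4, Tagln and Cnn1) and knockout library 2 for 2 (Acta2 and Notch3), beside 26.7%, 10.2% and 15.6% of all genes tested that were highest in these libraries, in the same order. The 10 endothelial markers summed to 2472 CPM in knockout library 1, against 1801 and 783 CPM in knockout libraries 2 and 3 and 1236 to 1549 CPM in the floxed libraries. Myh11 and Rgs5 were likewise highest in knockout library 1 and lowest in knockout library 3. Of these endothelial markers 9 had positive log2 fold changes, with a median of 0.28, and none passed the test. Fibroblast markers summed to 6233 to 11169 CPM in the floxed libraries and to 5579, 6301 and 13028 CPM in knockout libraries 1, 2 and 3, and the 8 myofibroblast markers tested to 1067 to 2461 and to 823, 740 and 2479 CPM. The median log2 fold changes of these lists were -0.17 and -0.02. Floxed library 1, highest for Cnn1 and second highest for Acta2, was the highest floxed library for both of these lists, whereas knockout library 2, with the highest Acta2 and the lowest Cnn1, had the lowest sum of the 6 for the myofibroblast list. By the median marker of that list, knockout library 1 was lowest, at -0.98 on the log2 scale relative to the floxed mean, against -0.78 in knockout library 2. By the median fibroblast marker, floxed library 1 was the highest of the 6, at 0.415, against 0.174 in knockout library 3. The part of these cell types in the values of the 10 genes was not tested.

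**Figure D4:**
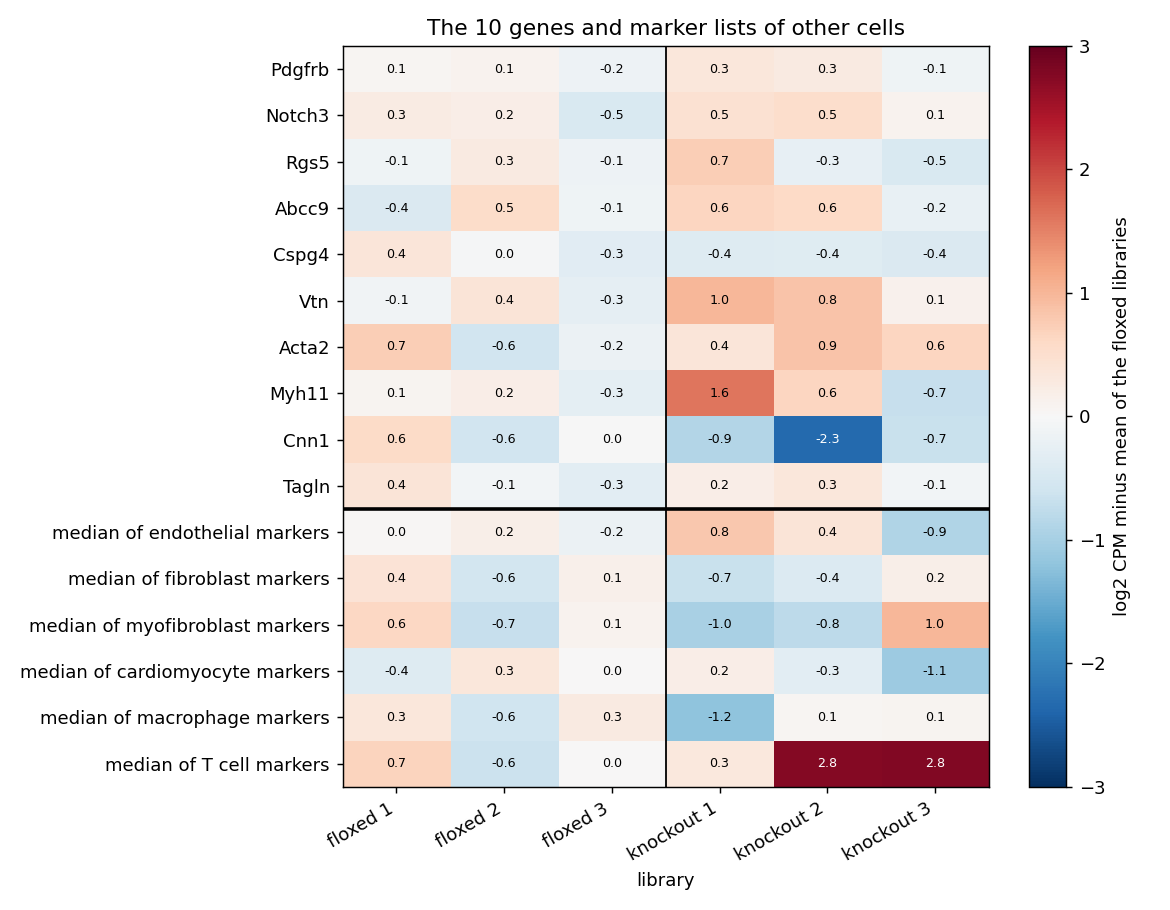
Level in each library (columns) of the 10 genes (upper rows) and of the median marker of 6 other cell types (lower rows), as log2 CPM relative to the floxed mean (colour and printed value). Myh11 was highest and the endothelial median highest in knockout library 1, and Cnn1 was lowest in knockout library 2.

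Other genes of smooth muscle and pericytes, from lists drawn up from textbook knowledge, also gave no gene past the test over all genes. Of 27 further contractile and cytoskeletal genes of smooth muscle, 16 had positive and 11 negative estimates (median log2 fold change 0.09). Over all genes, 2.65% were lower at an unadjusted edgeR p under 0.05 and 5.98% were lower without overlap. Of the 27, 3 had an unadjusted p under 0.05, each of them lower and without overlap. These were Synpo2, which encodes an actin-bundling protein of the Z-disc and of smooth muscle (64.1, 59.4 and 59.9 CPM in the floxed and 37.1, 41.7 and 48.6 CPM in the knockout libraries), Tpm1, a tropomyosin (log2 fold change -0.70), and Pdlim7, an adaptor of actin filaments (-0.62). All 3 are also made by heart muscle cells, and of the 10 cardiomyocyte markers 9 had negative log2 fold changes (median -0.34), their median marker being lowest in knockout library 3, at -1.08 relative to the floxed mean. Among the knockout libraries, library 3 was the highest for Synpo2 (48.6 CPM) and Pdlim7 (114 CPM) and the lowest for Tpm1 (2668 CPM). The part of heart muscle cells in these 3 genes was not tested. Ppp1r12a, the targeting subunit of myosin phosphatase, was higher without overlap, at 71.3 to 85.7 CPM in the floxed and 96.4 to 97.7 CPM in the knockout libraries (edgeR adjusted p = 0.789).

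Of 10 genes of SRF and its cofactors (12 symbols were listed and 10 had a row), 5 were positive and 5 negative, with a median of -0.02. Myocd, which encodes myocardin and is expressed by both smooth and cardiac muscle, measured 9.92, 11.2 and 10.6 CPM in the floxed and 7.11, 6.65 and 8.84 CPM in the knockout libraries. Each knockout value was below each floxed value, with a log2 fold change of -0.49 and an edgeR unadjusted p of 0.0554, edgeR adjusted p = 0.721. Klf4, a repressor of the contractile programme, had a log2 fold change of 0.29, with overlap.

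Of 18 other pericyte genes with a row, from 20 listed, 13 were positive and 5 negative, with a median of 0.17. Steap4, a metalloreductase found in pericytes and also induced by inflammation, measured 18.3, 18.5 and 17.2 CPM in the floxed and 28.5, 22.8 and 34.1 CPM in the knockout libraries. It did not overlap between the genotypes and had a log2 fold change of 0.66 (SE 0.19), with an edgeR unadjusted p of 0.0103 and an edgeR adjusted p of 0.578. Colec11, a secreted collectin, measured 19.1 to 20.7 CPM in the floxed libraries and 33.8, 33.6 and 18.0 CPM in knockout libraries 1, 2 and 3, with knockout library 3 below the floxed range.

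Signals that reach mural cells were examined from both sides. Of the 6 other PDGF ligands and receptors, 3 were positive and 3 negative, with a median of 0.26. Pdgfb, the endothelial ligand of PDGFRB, measured 88.9, 87.0 and 57.9 CPM in the floxed and 138, 180 and 73.5 CPM in the knockout libraries, so that knockout library 3 fell within the floxed range (log2 fold change 0.75, unadjusted p = 0.0700, edgeR adjusted p = 0.755). Pdgfd, a second ligand of that receptor, was higher in each knockout library, at 20.3 to 36.9 CPM against 16.3 to 19.1 CPM, with a log2 fold change of 0.57 (unadjusted p = 0.0596). Of 15 Notch pathway genes 13 were positive, with a median of 0.19, none with an unadjusted p under 0.05; the receptor Notch1 had a log2 fold change of 0.59 and the target gene Hey1 one of 0.65, both with overlap. Of 19 genes of angiopoietin, TGF-beta, sphingosine phosphate, endothelin and angiotensin signalling, 8 were positive and 11 negative, with a median of -0.08, and none had an unadjusted p under 0.05.

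Of 7 ATP-sensitive and related channel genes, 5 were positive, with a median of 0.26. Itpr1, the IP3 receptor that releases calcium from the smooth muscle reticulum, measured 51.0, 44.8 and 41.0 CPM in the floxed and 68.6, 61.3 and 62.3 CPM in the knockout libraries, without overlap (log2 fold change 0.49, SE 0.15, unadjusted p = 0.0150, edgeR adjusted p = 0.596). Kcnmb1, the subunit that tunes the calcium-activated potassium channel of smooth muscle, was also higher without overlap, at 1.32 to 1.71 CPM in the floxed and 2.51 to 2.75 CPM in the knockout libraries (log2 fold change 0.78, unadjusted p = 0.0398). Of 10 other RGS genes 7 were positive, with a median of 0.28; Rgs16, a relative of Rgs5 that is also made by T cells, measured 6.90 to 14.8 CPM in the floxed libraries and 8.19, 30.5 and 43.4 CPM in knockout libraries 1, 2 and 3, and Rgs18, a gene of platelets and myeloid cells, measured 1.68 to 2.61 CPM in the floxed libraries and at most 0.749 CPM in the knockout (edgeR adjusted p = 0.529). The 10 T cell markers summed to 126, 595 and 657 CPM in knockout libraries 1, 2 and 3 and to 59.2 to 146 CPM in the floxed libraries, the same 2 libraries being high as for Rgs16. All 10 had positive log2 fold changes, with a median of 2.23. In edgeR 9 of them had an unadjusted p under 0.05 as higher, beside 4.37% of all genes, and none of the 10 passed after adjustment. The part of T cells in the values of Rgs16 or of the 10 mural genes was not tested. Of 8 genes for vitronectin receptors and partners, 3 were positive and 5 negative, with a median of -0.21. Itgb5, whose product pairs with integrin alpha V to bind vitronectin, was lower in each knockout library, at 207 to 303 CPM against 321 to 406 CPM (log2 fold change -0.56, unadjusted p = 0.0405, edgeR adjusted p = 0.682).

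The genes whose course over the 6 libraries was most like the mean course of the pericyte genes, among 15116 genes of at least 1 CPM, were Fam160b2, Dnajb5, Chst15, Pla2r1 and Zfp691. Their centred log2 CPM differed from that course by 0.033 to 0.045 on average, against a median of 0.345 over all of these genes. For the contractile genes, whose own courses differed widely, the nearest were Rps18-ps3 (a pseudogene that can share reads with its parent gene), Rac3, Shank1, 4931440P22Rik and Scarf2, at 0.060 to 0.072 against a median of 0.361. These courses are given as descriptions, with no test.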

How the data were processed

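Stranded mRNA libraries were made from heart total RNA, per the labels' protocols. Build mm10 and, among other tools, featureCounts 1.6.2 and HISAT2 2.1.0 are listed in the submitters' processing notes, with no roles. The authors deposited raw counts for 35618 genes and FPKM for 35606. Of the 10 genes' deposited positions 0 start where GENCODE M21 on GRCm38 puts them, although 10 have the same span, so these positions are printed as they stand.

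Counts were tested with edgeR 4.0.16 (filterByExpr at a minimum count of 10, TMM, robust quasi-likelihood F test, genotype as the only term) in R 4.3.3, with a threshold of 0.05 on the adjusted p over 16591 genes. Standard errors came from the F statistic. CPM used TMM-scaled library sizes. FPKM was used for levels between genes and for ratios. The alternatives were RLE scaling, no filter or 1 CPM, DESeq2 1.42.0, limma 3.58.1 (voom, and log2 FPKM with pseudocounts of 1 and 0.1), the replicate number as a block, no robust estimation, other library sizes, and each library left out. The members and lists were chosen with earlier results of these data known. The text names all 10 members, Gsdmd, up to 4 genes with the smallest p per pathway list, up to 2 per marker list, paralogues or partners of a member, and the 5 genes nearest in course to each member group. The 12 marker lists are given in part beside the genes and in part among the further observations.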

Additional observations from a re-analysis of the deposited data

How the results depend on the processing

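None of the 10 genes passed at an adjusted p under 0.05 in the reported fit or in any of the 17 alternatives, the lowest adjusted p being 0.213. Of 170 estimates under the alternatives 166 kept the sign of the reported one. The exceptions were Rgs5, at -0.0011 with the replicate block and -0.39 to 0.31 without 1 library at a time, and Tagln, at -0.034 to 0.35 without 1 library at a time; the cause was not tested. Without 1 library at a time the median log2 fold change lay between 0.090 and 0.58 for the contractile and between 0.096 and 0.38 for the pericyte genes. Over all genes the number called was 2 in the reported fit, 10 without the filter on low counts, 243 in DESeq2, 1 in limma-voom, 0 with the replicate block, and 0 to 500 without 1 library at a time, the 500 being without knockout library 1. Deviations of same-numbered libraries correlated at -0.57, -0.31 and 0.041, and those of unlike-numbered libraries at -0.513 to 0.603. Because the deviations were centred within 3 libraries, these values cannot decide whether the libraries were paired. The reported fit did not use the numbers as pairs. Depth limits Tagln most, at 33 to 56 counts a library.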

Other observations

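Marker lists of cells that lie near mural cells or share genes with them gave these values, with no test of their own. Of the 10 listed genes of airway and visceral smooth muscle, 8 were tested, 3 with positive and 5 with negative log2 fold changes and a median of -0.41. Des, the desmin gene of smooth, cardiac and skeletal muscle, measured 2778 to 3272 CPM in the floxed and 1361 to 1907 CPM in the knockout libraries, without overlap (edgeR adjusted p = 0.546). Of 6 skeletal muscle markers tested 5 were negative, with a median of -0.59; Tnnt3 passed the test as lower, and Acta1, the skeletal alpha-actin, measured 570 to 805 CPM in the floxed and 328 to 538 CPM in the knockout libraries without passing it. Actg2, the other smooth muscle actin, had a log2 fold change of 0.35. The 10 macrophage markers had a median of -0.25.

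Of the mesothelial markers, 7 were tested, with a median of 0.55. Krt19 was lower in each knockout library, at 0.471 to 0.888 CPM against 4.08 to 5.71 CPM, and Upk3b higher, at 0.785 to 3.62 CPM against 0 to 0.120 CPM, neither past the test over all genes. Of the adipocyte markers 2 were tested, with a median of 0.04, and of these Fabp4, which capillary endothelium also makes, reached 2561 CPM in knockout library 1 against 308 to 1079 CPM in the other 5 libraries. The 8 Schwann cell and glial markers tested had a median of 0.33.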
